A study of Mus musculus with 6 samples.

Results

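The genes described here encode the chaperones, folding enzymes and regulators of the heat shock response, the unfolded protein response and the integrated stress response. A list of 35 such genes was named, and 33 of them were among the 18194 mouse genes measured. Hsf1, the transcription factor of the heat shock response, and Hsp90ab1, a cytosolic HSP90, were not analysed here. The measured genes were 10 cytosolic chaperones and co-chaperones, 3 mitochondrial chaperones, 15 genes of the endoplasmic reticulum (the transcription factor Xbp1 among them) and 5 genes of the integrated stress response.

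All samples were cultures of immortalized mouse embryonic fibroblasts of mixed background strain that lack Kdm5a (KDM5A-/-), the gene of an enzyme that removes methyl groups from histone H3 at lysine 4. Into these cells either an empty vector, wild-type KDM5A or the mutant KDM5A-H483A had been put, the mutant having alanine for a histidine of its catalytic domain. Each group had 2 arrays, 6 in total. Cultures were subconfluent, were grown in serum at the usual incubation temperature and were given no heat shock or other stress agent, as far as the labels say. No group had its own Kdm5a, and the labels do not say how many cell lines were used, what promoter drove the re-introduced protein, or how the 2 biological replicates of a group were separated. Total RNA was measured on an Affymetrix 3' array, on which a probe set is a group of short probes for 1 transcript. Values are log2 levels made with RMA, a method that corrects background, equalizes the distributions of the arrays and summarises the probes of a set, so 1 unit is a doubling. Levels are set side by side only between arrays for the same gene. The fibroblasts were measured in bulk, so fewer cells of a type and less RNA per cell cannot be told apart.

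Proteins that lose their fold are handled separately in each compartment of the cell. In the cytosol, misfolded protein releases the transcription factor HSF1, which raises HSP70, HSP90, HSP40 and small heat shock proteins and also the mitochondrial chaperonin. In the endoplasmic reticulum, misfolded protein activates IRE1, which splices the Xbp1 transcript, ATF6, which raises chaperones such as the HSP70 protein BiP, and PERK, a kinase that slows translation. PERK shares its downstream arm with kinases that sense amino acid shortage and other stresses: this integrated stress response favours translation of ATF4, which raises the transcription factor CHOP and genes of amino acid supply.

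The promoters of 3 members are shown because each holds a match to the element that a regulator of its class recognises. They are from RefSeq, build GRCm38.p6, whose promoter table had windows for 28 of the 35 named genes, each running from 250 bases before a transcription start to 50 after it. Capitals mark the match. The first stretch lies between a start of Hspd1 and that of Hspe1, which are transcribed away from each other, at chr1:55087933-55088147 on the plus strand. Another start of Hspd1 lies beyond that of Hspe1, and its window held no heat shock element. The second stretch lies before Hspa5 at chr2:34771840-34772089 and the third before Chac1 at chr2:119350992-119351241, both on the plus strand.
Hspd1 and Hspe1, heat shock element: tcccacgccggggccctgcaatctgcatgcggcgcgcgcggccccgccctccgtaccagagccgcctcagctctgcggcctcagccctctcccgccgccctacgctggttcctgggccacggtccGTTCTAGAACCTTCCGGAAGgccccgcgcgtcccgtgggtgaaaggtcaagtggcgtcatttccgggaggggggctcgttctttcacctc
Hspa5, endoplasmic reticulum stress element: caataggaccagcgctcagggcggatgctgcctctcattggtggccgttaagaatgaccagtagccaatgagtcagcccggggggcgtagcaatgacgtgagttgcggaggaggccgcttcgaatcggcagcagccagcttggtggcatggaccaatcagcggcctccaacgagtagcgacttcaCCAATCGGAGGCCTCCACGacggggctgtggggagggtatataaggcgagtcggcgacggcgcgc
Chac1, C/EBP-ATF response element: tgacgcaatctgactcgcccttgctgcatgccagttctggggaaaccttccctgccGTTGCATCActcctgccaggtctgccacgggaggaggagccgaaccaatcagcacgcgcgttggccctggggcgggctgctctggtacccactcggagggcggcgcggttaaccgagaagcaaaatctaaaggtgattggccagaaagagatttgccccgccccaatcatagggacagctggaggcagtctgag

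In the first stretch 2 overlapping matches to the heat shock element cover 20 bases, from 90 to 71 bases before the start of Hspe1. The element was searched on both strands as GAA, TTC and GAA, each 2 bases of any kind from the next. It was found in 0.659% of all 27025 genes with a window and in 3 of the 28 members, Hspd1, Hspe1 and Hsph1. The matches of Hspd1 and Hspe1 are the same 20 bases, seen from either side. The endoplasmic reticulum stress element, CCAAT and CCACG with 9 bases of any kind between them, occurred in 0.137% of all genes with a window. Among the 13 members of the endoplasmic reticulum with a window it occurred in 6. These were Hspa5, Hsp90b1, Calr, Creld2, Dnajc3 and Pdia6. The CCAAT box that this element contains is a far commoner motif by itself, and occurred in 41.1% of all genes with a window and in 12 of those 13 genes. The form TGATGNAAN of the C/EBP-ATF response element, to which ATF4 binds, was found in 4.5% of all genes with a window. The members with it were Asns, Chac1, Trib3 and Herpud1. No member's window held the core TGACGTGG of the unfolded protein response element, found in 0.714% of all genes with a window. A match is a description of the letters, and the arrays do not measure binding.

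The arrays were first checked against their labels. All 10 fibroblast markers, such as Col1a1, Col1a2, Vim and Fn1, lay above the median probe set. Markers of other cell types above it were 1 of 5 epithelial (Krt8), 1 of 4 endothelial (Kdr), 1 of 5 leukocyte (Csf1r), 3 of 4 skeletal muscle (Myog, Des and Actc1) and 2 of 3 neural genes (Nes and Sox2). The leukocyte antigen Ptprc, which defines that class, lay below it. Kdm5a itself read between 5.83 and 6.11 in all 6 arrays. Its wild-type KDM5A arrays overlapped both other groups. Both KDM5A-H483A arrays lay above both empty vector arrays, but the nearest values were 5.890 and 5.889. The labels do not say whether the Kdm5a probe set lies outside the deleted sequence or detects the re-introduced transcript. All measured members lay above the median probe set by mean level. Among probe sets with 1 gene symbol, the lowest member, Sdf2l1, lay at percentile 59.0 and the next lowest, Trib3, at percentile 70.8. These ranks set the chosen probe set of a gene among all such probe sets, not among genes.

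Among the cytosolic chaperones, Hspa4, an HSP110-type exchange factor of HSP70, spread most widely over the 6 arrays. It read 8.91 and 8.65 in the empty vector arrays, 7.90 and 8.91 in those of wild-type KDM5A, and 8.35 and 9.89 in those of KDM5A-H483A, each pair in the order of replicate 1 and replicate 2. The groups overlapped, and in both KDM5A groups the array of replicate 2 was the high one. Hspa8, the constitutive HSP70, read 10.27 and 9.67 in the empty vector arrays, 9.77 and 9.94 in those of wild-type KDM5A, and 9.92 and 10.94 in those of KDM5A-H483A. The last array stood above the other 5, and the remaining values overlapped. Hsph1, another HSP110, read 9.14 and 9.04, then 9.08 and 9.37, then 8.98 and 9.69 in the same order of groups, again with its highest value in the array of replicate 2 of KDM5A-H483A.

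Bag3, a co-chaperone that links HSP70 to selective autophagy, was the cytosolic member whose KDM5A-H483A arrays both stood above the other 4. It read 7.03 and 6.77 in the empty vector arrays, 6.82 and 6.91 in those of wild-type KDM5A, and 7.18 and 7.82 in those of KDM5A-H483A. Hspb1, the small heat shock protein HSP27, read 10.11 and 10.73, then 10.24 and 11.19, then 10.37 and 10.96 in the same order. Its 3 groups overlapped, and the array of replicate 2 was the higher one in each of them. Dnajb4, an HSP40 protein, read 9.60 and 9.99 in the empty vector arrays, 10.03 and 10.41 in those of wild-type KDM5A, and 10.03 and 9.88 in those of KDM5A-H483A. Its wild-type KDM5A arrays were both above the empty vector arrays. The other 4 cytosolic members moved within narrower ranges on the probe sets used. These were 0.62 for the small heat shock protein gene Hspb8, 0.42 for the HSP40 gene Dnaja1, 0.41 for the inducible HSP90 gene Hsp90aa1 and 0.18 for the HSP40 gene Dnajb1. Some of their other probe sets moved more widely. For Hsp90aa1, 1437497_a_at read 10.63 to 12.02 and 1426645_at 10.43 to 11.42. Both were lowest in replicate 1 of wild-type KDM5A and highest in replicate 2 of KDM5A-H483A. The dimmer 1433251_at read 4.61 to 4.90 and 1441827_x_at 3.56 to 4.27. For Dnaja1, 1416288_at read 9.44 to 10.28 and 1459835_s_at 9.61 to 9.98.

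The mitochondrial members were Hspd1 and Hspe1, whose products HSP60 and HSP10 form the chaperonin of the matrix, and Hspa9, the mitochondrial HSP70. Hspd1 read 10.81 and 10.80 in the empty vector arrays, 10.55 and 11.04 in those of wild-type KDM5A, and 10.67 and 11.80 in those of KDM5A-H483A. Hspe1 read 9.80 and 9.95, then 9.50 and 10.08, then 9.50 and 10.49 in the same order. For both genes the empty vector arrays lay between the replicates of each KDM5A group, with replicate 1 below them and replicate 2 above. Hspa9 read 8.72 and 9.04, then 8.83 and 9.31, then 8.63 and 9.22, with the array of replicate 2 the higher one in each group.

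**Figure D1:**
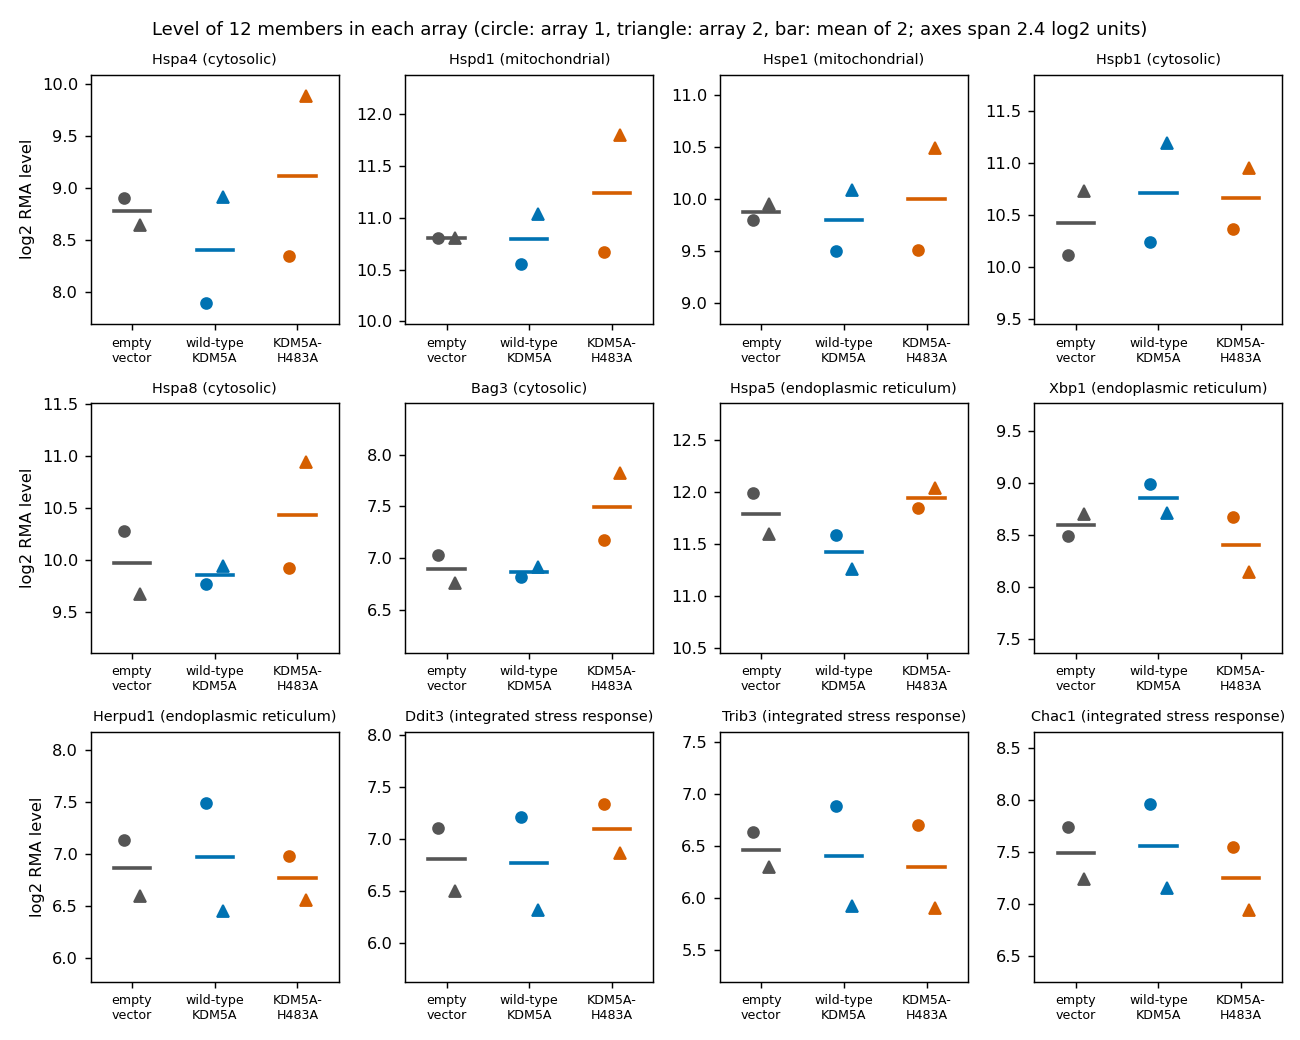
Level of 12 members in each array, on the log2 RMA scale (vertical axis), by group (horizontal axis). Circles are replicate 1, triangles replicate 2 and bars the mean of 2 arrays, and every panel spans the same height in log2 units, so the 1.54 between the KDM5A-H483A arrays of Hspa4 can be set against the 0.26 between its empty vector arrays.

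In the endoplasmic reticulum, Hspa5, the gene of BiP, read 11.99 and 11.59 in the empty vector arrays, 11.58 and 11.26 in those of wild-type KDM5A, and 11.84 and 12.04 in those of KDM5A-H483A. Both wild-type KDM5A arrays were below the other 4, but the nearest values were 11.58 and 11.59. On 1427464_s_at replicate 1 of wild-type KDM5A (9.41) lay above replicate 2 of empty vector (9.37), while 1447824_x_at kept the order. Pdia3, a disulfide isomerase that folds glycoproteins, read 10.09 and 9.66, then 9.87 and 9.41, then 9.97 and 10.28, with both KDM5A-H483A arrays above those of wild-type KDM5A. Creld2, a secreted target of ATF6, read 7.07 and 6.36, then 6.83 and 6.54, then 6.85 and 7.34. Its empty vector arrays were the farthest apart of the 3 pairs and spanned both wild-type KDM5A values.

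Xbp1, the transcription factor of the IRE1 arm, ran the other way from Hspa5. It read 8.50 and 8.70 in the empty vector arrays, 8.99 and 8.72 in those of wild-type KDM5A, and 8.68 and 8.14 in those of KDM5A-H483A. Both wild-type KDM5A arrays were above the other 4, but the nearest values were 8.72 and 8.70. The other probe sets, 1420886_a_at, 1420011_s_at and 1420012_at, did not repeat this order. On them replicate 2 of wild-type KDM5A (8.17, 8.01 and 7.10) lay below replicate 2 of empty vector (8.23, 8.11 and 7.25). Dnajb9, a co-chaperone of BiP and a target of XBP1, read 9.12 and 9.20, then 9.57 and 9.43, then 9.39 and 8.69, with both wild-type KDM5A arrays above the other 4. Herpud1, a component of the degradation machinery of the endoplasmic reticulum, read 7.14 and 6.60, then 7.50 and 6.45, then 6.99 and 6.56. Its groups overlapped and replicate 2 was the lower array in each group.

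The other 9 genes of the endoplasmic reticulum ranged over 0.37 to 0.76 log2 units across the 6 arrays. The chaperones among them were Hsp90b1, the resident HSP90, at 10.52 to 11.28, Hyou1, an exchange factor of BiP, at 9.91 to 10.30, and the lectin chaperone Calr at 12.21 to 12.77. The co-chaperone Dnajc3 read 7.73 to 8.25, Sdf2l1, which assists BiP, 5.38 to 5.75, and the secreted factor Manf 7.60 to 8.07. The further disulfide isomerases, Pdia4 and Pdia6, read 6.37 to 6.92 and 9.19 to 9.90. Edem1, a lectin that directs misfolded glycoproteins to degradation, read 8.40 to 8.91.

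Of the integrated stress response, Atf4 read 9.43 and 8.67 in the empty vector arrays, 9.10 and 8.67 in those of wild-type KDM5A, and 9.07 and 9.69 in those of KDM5A-H483A. The groups overlapped, and replicate 2 was the lower array in the first 2 of these groups and the higher one in the last. ATF4 is controlled largely through translation, which these arrays do not measure. Ddit3, the gene of CHOP, read 7.11 and 6.50, then 7.22 and 6.32, then 7.33 and 6.87. Trib3, a pseudokinase that restrains ATF4 and CHOP, read 6.63 and 6.30, then 6.88 and 5.92, then 6.70 and 5.90. Chac1, which degrades glutathione, read 7.74 and 7.24, then 7.96 and 7.16, then 7.55 and 6.95. For these 3 targets replicate 2 was the lower array in every group, and the groups overlapped. Asns, asparagine synthetase, read 9.42 and 9.33, then 9.48 and 9.59, then 9.23 and 9.35, with both wild-type KDM5A arrays above the other 4.

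The first question was whether re-introduced KDM5A moved these genes, and whether its catalytic histidine mattered. Differences were tested with limma, which fits 1 mean per group and moderates each gene's variance over all genes, and a gene was called at an adjusted p (Benjamini-Hochberg over 18194 genes) below 0.05. The 2 KDM5A groups were each set against empty vector, first wild-type and then H483A, and H483A was then set against wild-type. In all 3 comparisons 0 of 33 members were called by limma, as were 0% of all genes. At an unadjusted p below 0.05 the members numbered 0, 1 and 2 of 33 in these comparisons, against 2.52%, 1.65% and 3.81% of all genes. These counts depended on the KDM5A-H483A arrays. Without replicate 1 of that group 8 members passed against empty vector and 12 against wild-type KDM5A, where 11.4% and 12.8% of all genes passed, and without its replicate 2 there were 0 and 0. The lowest adjusted p of a member was 1, 0.999 and 0.928 in turn. The 95% confidence interval of a member's difference reached 0.54 log2 units to either side at the median over the members.

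Bag3 and Hspa5 were the members with an unadjusted p below 0.05. Bag3 averaged 6.90 ± 0.19 with empty vector, 6.87 ± 0.07 with wild-type KDM5A and 7.50 ± 0.45 with KDM5A-H483A (SD, n = 2 each). Its log2 fold change for KDM5A-H483A was 0.60 (SE 0.22, interval 0.06 to 1.14) against empty vector, with an unadjusted p of 0.0348 and an adjusted p of 0.999. Against wild-type KDM5A it was 0.63 (SE 0.22, interval 0.09 to 1.18), with an unadjusted p of 0.0283 and an adjusted p of 0.928. These are folds of 1.52 and 1.55, and neither passed the adjustment over all genes. Without replicate 2 of KDM5A-H483A the difference from empty vector was 0.28. Hspa5 averaged 11.79 ± 0.28, 11.42 ± 0.23 and 11.94 ± 0.14 (SD, n = 2 each) in the 3 groups. KDM5A-H483A stood 0.52 above wild-type KDM5A for this gene (SE 0.19, interval 0.06 to 0.98, a fold of 1.43), with an unadjusted p of 0.0318 and an adjusted p of 0.928. Wild-type KDM5A stood below empty vector by -0.37 (SE 0.19, interval -0.83 to 0.09), with an adjusted p of 1.

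The remaining group differences with an unadjusted p below 0.1 did not pass the adjustment either. For wild-type KDM5A against empty vector this was Dnajb4, with a log2 fold change of 0.42 (SE 0.20, interval -0.05 to 0.89). For KDM5A-H483A against wild-type KDM5A, Pdia3 had a log2 fold change of 0.49 (SE 0.23, interval -0.05 to 1.03). In the same comparison the log2 fold changes were -0.45 for Xbp1 (SE 0.21), -0.46 for Dnajb9 (SE 0.23), -0.29 for Edem1 (SE 0.15) and -0.24 for Asns (SE 0.12), all with intervals that included 0. Without replicate 2 of KDM5A-H483A these were -0.11 for Dnajb9, -0.18 for Xbp1 and -0.15 for Edem1, and the other probe set of Edem1 had 0.25, opposite in sign. XBP1 is known to raise Dnajb9 and Edem1, but whether it did so in these cultures was not tested. The widest interval belonged to Hspa4, whose log2 fold change was 0.71 for KDM5A-H483A against wild-type KDM5A.

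**Figure D2:**
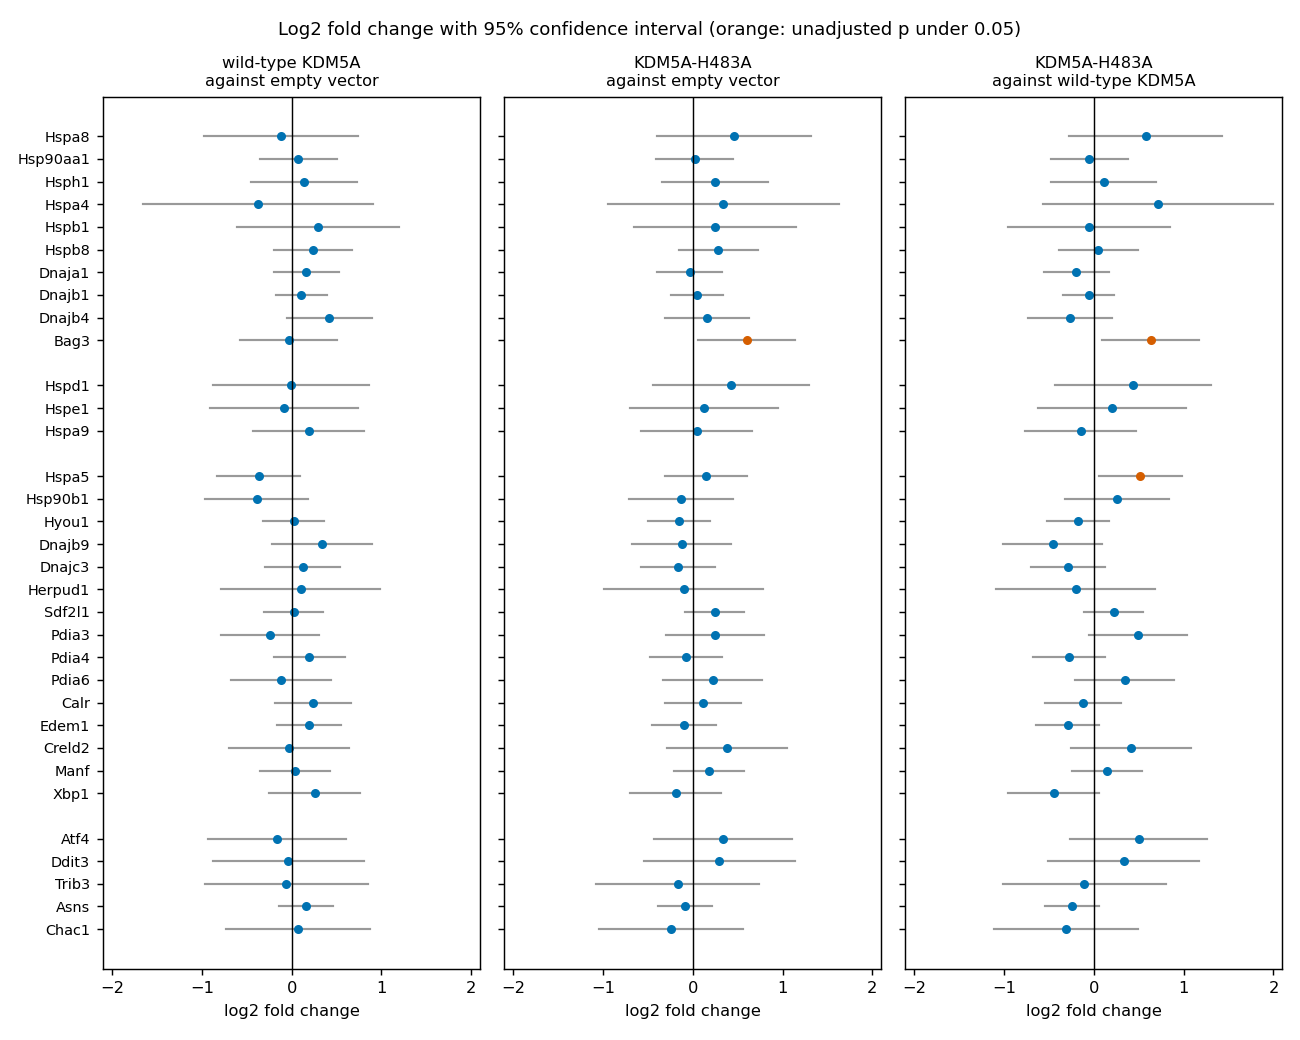
Log2 fold change of the 33 members (rows, ordered by class) in the 3 comparisons between groups (panels), with 95% confidence intervals from limma as lines. Orange points have an unadjusted p below 0.05: Bag3 at 0.60 and 0.63, and Hspa5 at 0.52.

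As a set the members lay close to 0. Their median log2 fold change was 0.07 for wild-type KDM5A against empty vector (20 above 0, 13 below), 0.12 for KDM5A-H483A against empty vector (21 above, 12 below) and -0.05 for KDM5A-H483A against wild-type KDM5A (16 above, 17 below). The median over all genes was 0.00, 0.00 and -0.01. By class, the medians against empty vector were 0.12 with wild-type KDM5A and 0.25 with KDM5A-H483A for the cytosolic genes, of which 7 and 9 of 10 were above 0. In single arrays the cytosolic median was -0.044 and 0.28 for the wild-type protein and -0.051 and 0.51 for the mutant, so it lay above 0 only in the arrays of replicate 2 of these groups. They were -0.01 and 0.12 for the mitochondrial genes, 0.04 and -0.08 for those of the endoplasmic reticulum, and -0.04 and -0.08 for the integrated stress response. These comparisons share their empty vector arrays.

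Groups whose arrays did not overlap were counted next, and are read against the share of all genes that met the same condition. Both wild-type KDM5A arrays lay beyond both empty vector arrays for 10 of 33 members, against 31.8% of all genes. The members were Asns, Dnajb1, Dnajb4, Dnajb9, Dnajc3, Edem1, Hspb8 and Xbp1 on the higher side, with Hsp90b1 and Hspa5 on the lower side. For KDM5A-H483A against empty vector these were 3 of 33 members, against 28.2% of genes: Bag3 and Sdf2l1 were higher and Hyou1 lower. KDM5A-H483A lay apart from wild-type KDM5A for 13 of 33 members, against 31% of genes. Bag3, Creld2, Hspa5, Pdia3, Pdia6 and Sdf2l1 were higher there, and Asns, Dnajb1, Dnajb9, Dnajc3, Edem1, Pdia4 and Xbp1 were lower. Other probe sets did not repeat all of these. For Dnajc3, 1449372_at had -0.36 for wild-type KDM5A against empty vector and 0.63 for KDM5A-H483A against wild-type. The arrays were apart in both, while 3 of 4 other probe sets of Dnajc3 kept the sign in each. For Dnajb4, 1439524_at lay apart at -0.36 for wild-type KDM5A against empty vector, and 1 of 2 other probe sets kept the sign. In the same comparison the arrays overlapped on all 3 other probe sets of Xbp1, of which 2 kept the sign. They also overlapped on 1427464_s_at of Hspa5, where 2 of 2 other probe sets kept the sign.

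The second comparison was between the replicates, and its term was chosen with earlier results of these data known. In both KDM5A groups the array of replicate 2 was read against that of replicate 1 with limma, in a fit that keeps the 3 group means and adds 1 term for replicate 2 of the KDM5A groups. The difference between the empty vector arrays then counts as error, and the labels do not say what a replicate number stands for. Hspa4, Hspd1 and Hspe1 rose and Trib3 fell in replicate 2. These were 4 of 33 members, against 4.33% of all genes called. By direction 3 members were called higher against 1.45% of genes, and 1 lower against 2.89%.

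Hspa4 was 2.02-fold higher in replicate 2 with wild-type KDM5A and 2.91-fold with KDM5A-H483A, while its empty vector arrays differed by -0.26. The fitted log2 difference was 1.28 (SE 0.17, interval 0.89 to 1.66, adjusted p = 0.00916). Hspd1 was 1.40-fold and 2.19-fold higher, with a fitted log2 difference of 0.81 (SE 0.17, adjusted p = 0.0391). Its partner Hspe1 was 1.50-fold and 1.98-fold higher, with a log2 difference of 0.78 (SE 0.15, adjusted p = 0.0270). A start of Hspd1 and that of Hspe1 lie on either side of the first stretch printed above. The part of its heat shock element in these differences was not tested. Trib3 was 1.94-fold higher in replicate 1 with wild-type KDM5A and 1.74-fold with KDM5A-H483A, a log2 difference of -0.88 (SE 0.15, adjusted p = 0.0211).

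The calls rested on particular arrays. Without either KDM5A-H483A array 0 members were called, where 0.258% of all genes were, and without either wild-type KDM5A array 1 was (Hspa4), where 0.605% of genes were. A fit of the 4 KDM5A arrays alone called 8 members, where 5.27% of genes were called. Leaving out either empty vector array gives this same fit, because the array that remains is matched exactly by its own group mean. The 4 added members were Hspb1, higher in replicate 2, and Herpud1, Ddit3 and Chac1, lower. A single replicate term over all 3 groups called 0 members and 0% of genes.

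Members that were not called ran from -0.74 to 0.77 on the log2 scale. Hspb1 had a log2 difference of 0.77 (adjusted p = 0.0861), Hspa9 one of 0.54 (adjusted p = 0.0878) and Hsph1 one of 0.50 (adjusted p = 0.106). The value was 0.60 for Hspa8, 0.37 for Bag3 and 0.11 for Dnajb4. On the other side stood Herpud1 at -0.74 (adjusted p = 0.104), Chac1 at -0.70 (adjusted p = 0.0726) and Ddit3 at -0.68 (adjusted p = 0.126). Dnajb9 and Xbp1 had differences of -0.42 and -0.40. Atf4 and Creld2 at 0.10, Asns at 0.11, Hspa5 at -0.06 and Pdia3 at -0.08 had intervals around 0. Of these 5 genes, the 2 KDM5A groups ran in opposite directions for all but Asns.

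By compartment the median log2 difference was 0.34 over the cytosolic members (9 of 10 above 0), 0.78 over the mitochondrial ones (3 of 3), -0.11 over the endoplasmic reticulum (5 of 15) and -0.68 over the integrated stress response (2 of 5). Over all members it was 0.10 and over all genes -0.00. At an unadjusted p below 0.05 there were 14 members, against 18.6% of genes, and without either KDM5A-H483A array 8, against 13.8%. With all arrays they were 7 higher against 8.87% and 7 lower against 9.73%, and each of the 7 higher ones was cytosolic or mitochondrial while each of the 7 lower ones belonged to the endoplasmic reticulum or the integrated stress response. Replicate 2 was the higher array in both KDM5A groups for 13 members against 28.4% of genes, and the lower one in both for 11 against 31.3%.

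**Figure D3:**
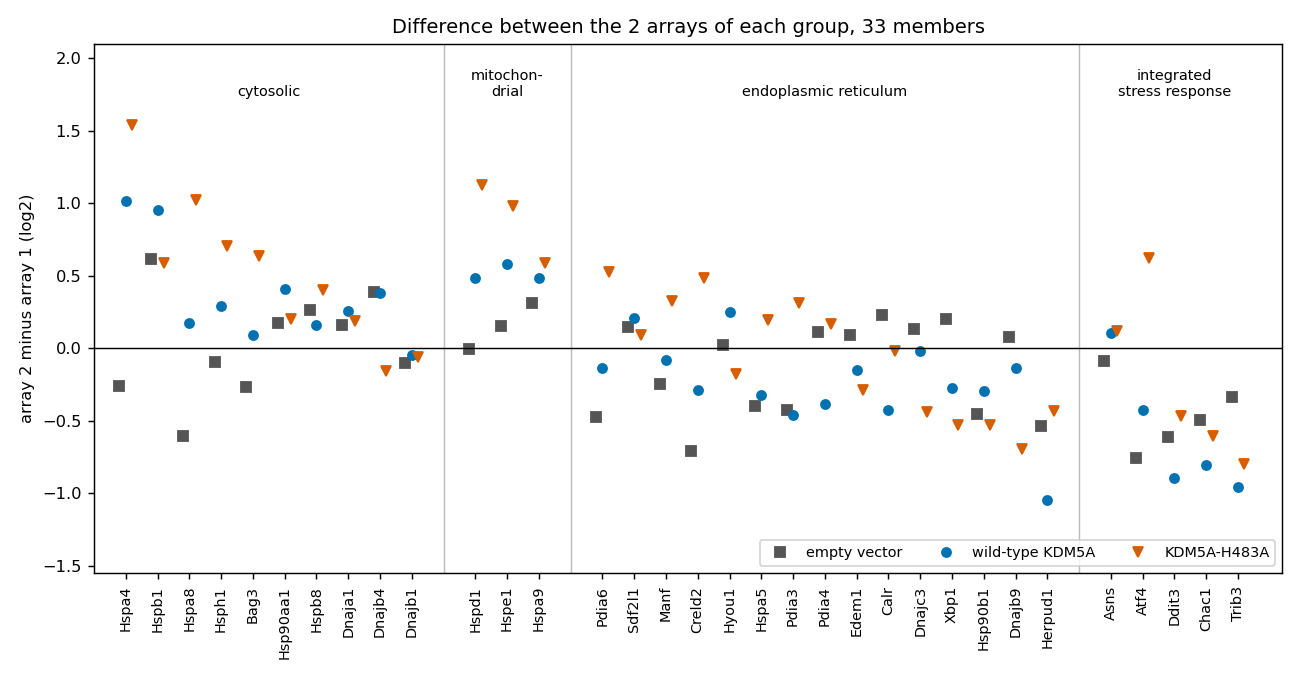
Difference between replicate 2 and replicate 1 in log2 units (vertical axis) for each of the 33 members (horizontal axis, by class) in each group. Hspa4 has the highest KDM5A points at 1.02 and 1.54, and Ddit3, Chac1 and Trib3 lie below 0 in all 3 groups.

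The empty vector pair did not run the same way in every class. Its median difference of replicate 2 from replicate 1 was 0.03 over the cytosolic and 0.16 over the mitochondrial members, where wild-type KDM5A had 0.27 and 0.49 and KDM5A-H483A 0.50 and 0.99. Over the integrated stress response the 3 groups had -0.50, -0.80 and -0.47. Replicate 2 was lower in all 3 groups for 6 members, Ddit3, Trib3, Chac1, Herpud1, Hsp90b1 and Dnajb1, against 17.3% of all genes. Replicates of a group differed by at least 1 log2 unit for 0 members with empty vector (0.148% of genes), 2 with wild-type KDM5A (1.85%) and 3 with KDM5A-H483A (2.4%). The 2 were Hspa4 and Herpud1 and the 3 were Hspa4, Hspa8 and Hspd1.

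Single arrays stood out by class. Replicate 2 of KDM5A-H483A held the highest of the 6 values for 14 of 33 members, against 23.1% of all genes. Of the 13 cytosolic and mitochondrial members it held the highest value for 7, and of the 20 other members for 7 as well. Replicate 1 of wild-type KDM5A held it for 10 members, against 21.3% of genes, and 9 of those 10 were among the 20 members of the endoplasmic reticulum and the integrated stress response. Relative to the empty vector mean, the median mitochondrial member stood at 0.62 in replicate 2 of KDM5A-H483A and at -0.25 in replicate 1 of both KDM5A groups. The median member of the integrated stress response stood at 0.41 in replicate 1 of wild-type KDM5A and at -0.38 in its replicate 2. Fibroblast markers differed with the replicate number too. Replicate 2 was lower for 8 of the 10 with empty vector, all 10 with wild-type KDM5A and 7 with KDM5A-H483A, with median differences of -0.18, -0.79 and -0.84. The lower values included those of Col3a1, which differed by -2.62 and -2.66 in the KDM5A groups, while Thy1, Vim and S100a4 were higher in replicate 2 of KDM5A-H483A. Of the 3 neural markers, Nes and Sox2 were higher in replicate 2 of every group, by 0.96 and 0.68 for Sox2 in the KDM5A groups, while Tubb3 was lower there with KDM5A-H483A. The part of either marker list in the chaperone differences was not tested.

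**Figure D4:**
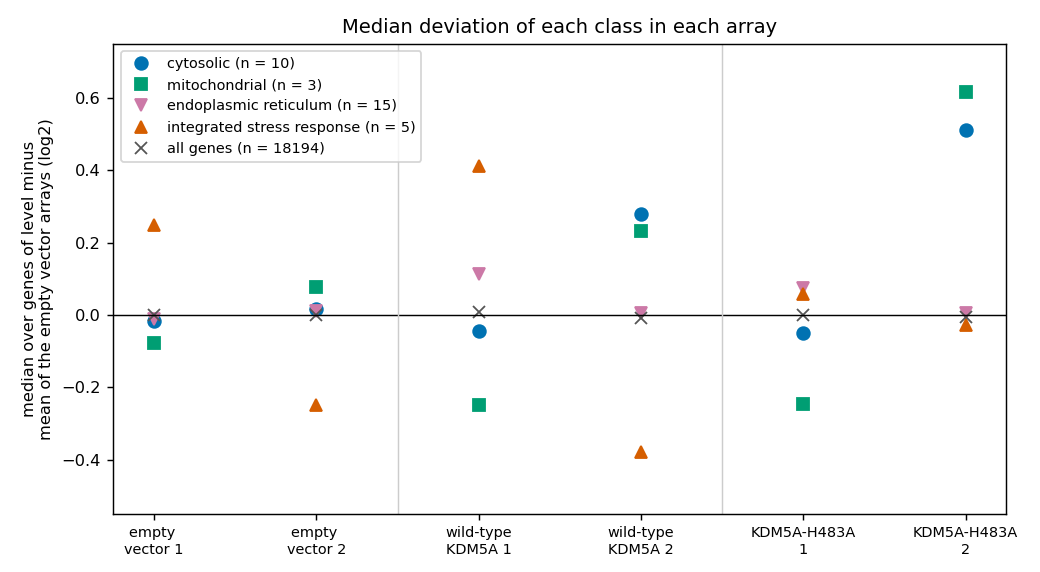
Median deviation of each class from the mean of the empty vector arrays, in log2 units (vertical axis), in each of the 6 arrays (horizontal axis), with all 18194 genes as crosses near 0. The mitochondrial and cytosolic medians reach 0.62 and 0.51 in replicate 2 of KDM5A-H483A, and the median of the integrated stress response lies at -0.38 in replicate 2 of wild-type KDM5A.

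Other probe sets of the same genes gave a partial check of these differences. Of 48 other probe sets of the members, 36 had the same sign as the one used in the replicate comparison. For Hspe1 the other probe set differed by 0.61 with wild-type KDM5A and 1.11 with KDM5A-H483A, and for Trib3 by -1.40 and -0.97. Hspb1 had 0.97 and 1.05 on its other probe set, and Ddit3 had -0.82 and -0.61. For Hspa9 the probe sets disagreed: 1418504_at gave -0.00080 and 1.24, and the mean of all its probe sets differed by 0.19. The other probe set of Hsp90b1 had a fitted difference of 0.19, opposite in sign to the -0.41 of the one used, and that of Edem1 had 0.41 against -0.22. Hspa4 did not repeat: its probe set 1416146_at gave 1.02 and 1.54, but 1435194_at gave 0.34 and 0.09, 1416147_at gave 0.03 and 0.54, and 1440575_at gave -0.17 and -0.49. With the mean of all its probe sets Hspa4 had a difference of 0.36 and was not called. Hspd1, Bag3 and Chac1 have 1 probe set each.

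Further genes of the same pathways were read from 4 wider lists, of which 147 of 153 genes were measured. No gene of these lists was called in the comparisons between groups. Of 44 other cytosolic chaperones and heat shock genes, 36 were above 0 for KDM5A-H483A against empty vector, with a median of 0.23, and the median was -0.00 for wild-type KDM5A. Against the empty vector mean the list's median was -0.084 in replicate 1 of KDM5A-H483A and 0.39 in replicate 2, which held the highest of the 6 values for 27 of the 44 genes (23.1% of all genes). The medians of the other 3 lists lay between -0.04 and 0.08 in all 3 comparisons. At an unadjusted p below 0.05 the 4 lists together held 4, 2 and 11 genes in the 3 comparisons, of 147 each, to be read against the 2.52%, 1.65% and 3.81% of all genes given above.

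The wider genes with the smallest p in each list showed no common direction. For wild-type KDM5A against empty vector the log2 fold changes were -0.51 for Hspa14 and 0.49 for Bag2 in the cytosol, and 0.45 for the mitochondrial HSP40 gene Dnaja3 and -0.27 for the protease gene Afg3l2. They were 0.32 for Wfs1 and -0.48 for Selenos in the endoplasmic reticulum, and 0.27 for Ppp1r15a, whose product restores translation, and -0.41 for the tRNA synthetase gene Eprs. For KDM5A-H483A against empty vector they were -0.48 for Dnajb5, 0.34 for Pfdn5, 0.46 for Clpb, -0.45 for Yme1l1, -0.45 for Ern1, the gene of IRE1, and -0.31 for Hspa13, with -0.49 for Cth and 0.23 for Ppp1r15a. For KDM5A-H483A against wild-type KDM5A they were 0.52 for Hspa14, -0.37 for Dnajb6, -0.55 for Dnaja3, 0.48 for Clpb, -0.46 for Hspa13, 0.53 for Derl2, 0.66 for Eprs and -0.28 for Slc7a5. None of these passed the adjustment.

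Between replicates of the KDM5A groups the wider cytosolic list had a median log2 difference of 0.33, and 2 of its 44 genes rose in replicate 2 while 1 fell, against 1.45% and 2.89% of all genes. Hspa4l, another HSP110, differed by 0.78 (SE 0.13, adjusted p = 0.0206), and Cct5, a subunit of the cytosolic chaperonin, by 0.77 (SE 0.17, adjusted p = 0.0490). The gene that fell was Hspa1b, an inducible HSP70, which read 9.56 and 9.27 in the empty vector arrays, 10.00 and 9.32 in those of wild-type KDM5A, and 9.88 and 9.18 in those of KDM5A-H483A. Its difference was -0.69 (SE 0.14, adjusted p = 0.0370), opposite in sign to the constitutive HSP70 gene Hspa8. Hspa1b and Hspa1a are nearly identical, so their probe sets may not separate them, and Hspa1a had -0.54 (adjusted p = 0.0789).

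No gene of the 17 in the mitochondrial list was called, with a median of 0.23, 4 genes higher and 0 lower at an unadjusted p below 0.05 (8.87% and 9.73% of all genes), and with Grpel1, a co-chaperone of HSPA9, at 0.85 (adjusted p = 0.0556) and Phb2, a prohibitin, at 0.54 (adjusted p = 0.0888). Of the 49 further genes of the endoplasmic reticulum, with a median of -0.19, 1 rose and 2 fell, against the same shares of 1.45% and 2.89% of all genes. The signal peptidase subunit gene Sec11c rose by 0.70 (adjusted p = 0.0416), while the disulfide isomerase gene Pdia5 (-0.70, adjusted p = 0.0343) and the collagen-folding gene Fkbp14 (-0.67, adjusted p = 0.0401) fell. Of the 37 further genes of the integrated stress response, with a median of 0.09, 3 fell and 0 rose, against 2.89% and 1.45% of all genes. Ddit4, an inhibitor of mTORC1, read 8.80 and 8.36 in the empty vector arrays, 9.26 and 7.72 in those of wild-type KDM5A, and 9.06 and 8.07 in those of KDM5A-H483A. Its arrays of replicate 2 were the low ones in each group, and its log2 difference was -1.26 (SE 0.19, adjusted p = 0.0142). Sesn2, which signals amino acid shortage to mTORC1, differed by -0.76 (adjusted p = 0.0401) and the amino acid transporter gene Slc7a3 by -0.63 (adjusted p = 0.0469).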

How the data were processed

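The authors deposited 1 table of log2 values for 45101 probe sets, and the submitters' processing notes name RMA, with no version. Because RMA equalizes the arrays, it hides any change in the RNA content of a cell. The labels' protocols name a whole-transcript labelling kit, while this array reads 3' ends. Of the probe sets, 34958 had 1 gene symbol, 932 several and 9211 none listed. Of the 34958, 34754 had an Entrez ID found in RefSeq and took the symbol given there, whether or not it differed. Each gene took the probe set with the highest mean over 6 arrays, not one ending in _x_at where another exists (100 genes had no other). The values were used without further scaling and without a filter.

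Tests used limma 3.58.1 in R 4.3.3 (lmFit, eBayes) and were tested on simulated data. Members with the widest range in each class, the master regulators and the 2 wider-list genes with the smallest p are named with values. The 10 group differences with an unadjusted p below 0.1 were picked with their values in view. The members, the lists and the term for replicate 2 of the KDM5A groups were chosen with earlier results of these data known. The labels call the replicates biological and do not say how they were separated, so p-values cover only the spread seen between these arrays. Precision is limited by the number of arrays. Each array was left out in turn, and other variance models, scalings, a filter on dim genes and the mean of all probe sets were tried.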

Additional observations from a re-analysis of the deposited data

How the results depend on the processing

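No alternative called a member in the comparisons between groups, and the 10 group differences given with a test kept their direction under each alternative run. For most alternatives this was fixed in advance. The arrays of the groups did not overlap for these 10, so leaving out 1 array could not turn a sign. The replicate block and the other variance models leave the difference itself unchanged. The size of these differences did not hold: without 1 array Dnajb9 ranged from -0.81 to -0.11, Xbp1 from -0.71 to -0.18, Edem1 from -0.44 to -0.15 and Hspa5 in wild-type KDM5A against empty vector from -0.57 to -0.17. The mean of all probe sets gave -0.021 for Edem1, 0.10 for Dnajb4 and 0.22 for Pdia3. The median fold change of the members for wild-type KDM5A against empty vector was 0.023 with the mean of all probe sets and 0.035 to 0.11 when 1 array was left out. For KDM5A-H483A against empty vector it was 0.025 to 0.12 without 1 array. For KDM5A-H483A against wild-type KDM5A it was -0.0024 after repeated quantile normalization, 0.13 with the mean of all probe sets and -0.068 to 0.11 without 1 array. The replicate numbers were not taken to pair the samples across all groups. Differences of replicate 2 from replicate 1 correlated across genes at 0.53 between the KDM5A groups and 0.31 between empty vector and wild-type KDM5A, but at 0.016 between empty vector and KDM5A-H483A. With the replicate number as a block, 0 members were called in each comparison, 2, 1 and 2 had an unadjusted p below 0.05 (3.92%, 2.76% and 5.07% of all genes), and the medians stayed at 0.07, 0.12 and -0.05.

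Between replicates of the KDM5A groups, 0 to 8 members were called without 1 array (0.258% to 5.27% of all genes), 8 with the 4 KDM5A arrays alone (5.27% of genes, an alternative added after seeing the data) and 0 with a term over all 3 groups. The median difference was 0.14 after centring, -0.027 with that term and -0.047 to 0.19 without 1 array. With that term Atf4 stood at -0.18 and Creld2 at -0.17. Without 1 array, signs turned for Dnajb4 (-0.16 to 0.38), Creld2 (-0.29 to 0.49), Pdia3 (-0.46 to 0.31), Hspa5 (-0.32 to 0.20) and Atf4 (-0.43 to 0.63). Hspb1 was called with the mean of all probe sets, at 0.89. Without 1 KDM5A array, the other array of its group is matched exactly by the group mean. The term then equals the difference between the replicates of the other KDM5A group. The signs that turned are therefore those of KDM5A groups that ran in opposite directions. Without 1 empty vector array the fit is the same as that of the 4 KDM5A arrays alone. The cause of the other changes was not tested.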
